A study of Mus musculus with 20 samples.

Results

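Anks1, Cit, Agfg1 and Ccdc141 are 4 mouse genes that were picked because 1 intronic CpG of each differed in liver between offspring of an adverse maternal environment (AME) and control offspring (Con). Every CpG from 5 kb upstream of the transcription start site (TSS) to the end of each gene was taken if it had at least 10 reads in at least 3 libraries of each of the 4 groups. This gave 441 CpGs, of 922846 in the whole series, in 4 of the 30593 genes that held such a CpG. Anks1 had 125 of them, Cit 239, Agfg1 40 and Ccdc141 37. The genes were thus chosen by measured values, the AME and Con methylation of these libraries. The age at which they were picked is not known. In each gene the intronic CpG with the smallest p between AME and Con over both ages was taken as its lead CpG. That p was at d0 for Anks1 and at d21 for Cit. For these 2 genes a p is given at the other age, though that age was searched as well. For Agfg1 and Ccdc141 both ages were counted as used. The difference at a lead CpG is therefore given as a description, with no test.

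Reduced representation bisulfite sequencing (RRBS) was performed on livers of wild-type C57BL/6J offspring that were all labelled male, with 5 libraries in each group and 20 in all. In AME-d0 and AME-d21 the dams ate a Western-style diet from before mating through pregnancy and met daily changes of their surroundings late in gestation. For AME-d21 the diet went on through lactation, which the d0 pups did not reach. In Con-d0 and Con-d21 the dams ate a control diet without that stress. The d0 pups were taken by C-section at term, and the d21 pups were raised by their own dam. The diet and the stress were always given together, so their effects cannot be told apart. A p compares libraries that the study describes as coming from 5 litters per group.

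In vertebrate DNA most CpGs inside genes are methylated, while CpG-rich promoters are usually free of methylation, and a sequence context can lose or gain the mark as cells differentiate. Anks1 encodes an adaptor with ankyrin repeats and sterile alpha motifs that binds Eph receptors, the receptor tyrosine kinases for ephrins. Cit encodes citron kinase, which acts at the cleavage furrow and midbody at the end of cell division; hepatocytes of young rodents often leave out this last step and become binucleate. Agfg1 encodes a protein with an ArfGAP domain and FG repeats that takes part in vesicle and RNA traffic. Ccdc141 encodes a coiled-coil protein known from the migration of neurons.

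The libraries held between 23248139 and 45769589 methylated and unmethylated calls, with a median of 7 to 13 reads per listed CpG. AME-d21 replicate 4 stood apart from its label. Its reads on chromosome X came to 2.88 for every 100 on autosomes, where the remaining 19 libraries had 1.40 to 1.55, and its reads on chromosome Y to 329 per 1000000, where they had 1154 to 1694. AME-d0 replicates 1 and 3 had the lowest mean methylation, 31.9% and 33.0%, against 33.7% to 35.3% in the other d0 libraries. The lead CpGs, the counts of CpGs called with age and the gene features with age are also given without them, and other values with all libraries. Liver is a mixture, so a change in the share of a cell type and a change within a cell cannot be told apart in these values.

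The lead CpGs are shown in their sequence because RRBS reads only what MspI cuts. Each line gives the plus strand, 5′ to 3′, of 122 bases of RefSeq GRCm38, with the lead CpG in capitals.
Anks1 lead CpG, chr17:28023027-28023148: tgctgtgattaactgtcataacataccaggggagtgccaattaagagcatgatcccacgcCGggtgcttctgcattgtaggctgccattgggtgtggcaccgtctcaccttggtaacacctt
Cit lead CpG, chr5:115869206-115869327: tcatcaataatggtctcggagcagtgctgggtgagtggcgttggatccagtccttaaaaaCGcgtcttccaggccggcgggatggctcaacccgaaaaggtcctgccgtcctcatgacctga
Agfg1 lead CpG, chr1:82860454-82860575: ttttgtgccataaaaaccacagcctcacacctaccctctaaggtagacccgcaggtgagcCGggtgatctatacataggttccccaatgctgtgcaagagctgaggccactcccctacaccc
Ccdc141 lead CpG, chr2:77106547-77106668: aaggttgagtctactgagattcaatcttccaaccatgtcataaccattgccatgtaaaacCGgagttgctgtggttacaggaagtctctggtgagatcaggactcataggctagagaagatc
The MspI site CCGG, which reads the same on both strands, occurred once in each of these windows and in 83.9% of the 122-base windows around all tested CpGs. The lead CpGs of Anks1, Agfg1 and Ccdc141 lay within CCGG, as did 23.1% of all tested CpGs, and that of Cit lay 14 bp from the next site. None of the 4 was in a repeat-masked base, against 16.4% of all tested CpGs. Within 502 bp the 4 windows held 13, 16, 6 and 2 CpGs in the order printed, against a median of 21.

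The lead CpG of Anks1 was at position 28023087 of chromosome 17, in intron 12 of transcript Anks1-203 and 113781 bp after the TSS. Its methylation was 50.0%, 70.8%, 53.3%, 75.0% and 52.4% in the AME-d0 libraries, against 92.6%, 95.5%, 95.5%, 96.2% and 84.8% in the Con-d0 libraries. Every AME-d0 library was below every Con-d0 library, with means of 60.3% ± 11.7 in AME-d0, against 92.9% ± 4.73 in Con-d0 (mean ± SD, n = 5 each), a Δme of -32.6 percentage points. Without AME-d0 replicates 1 and 3 the Δme was -26.8 points. At d21 the libraries gave 94.7%, 77.3%, 94.4%, 100% and 90.9% in AME-d21 and 100%, 96.6%, 86.2%, 85.0% and 93.3% in Con-d21. Those groups overlapped, with a Δme of -0.75 points, and of -2.88 points without AME-d21 replicate 4. The low values were thus seen in AME-d0 alone among the 4 groups, on 14 to 24 reads per library there.

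The neighbours of the Anks1 lead CpG were 3 covered CpGs, at 40, 81 and 101 bp from it. At 40 bp the means were 77.1% ± 8.13 in AME-d0, against 80.5% ± 3.49 in Con-d0 (mean ± SD, n = 5 each). At 81 bp they were 65.2% ± 4.99 in AME-d0, against 69.2% ± 5.51 in Con-d0. At 101 bp they were 80.8% ± 12.8 in AME-d0, against 84.0% ± 4.43 in Con-d0. The Δme at d0 was thus -3.45, -3.97 and -3.21 points at the neighbours, against -32.6 at the lead CpG, and the groups overlapped at each. Both ages were searched for the lead CpG, whose smallest p was at d0. At d21 the Δme at these neighbours was -5.00, 4.90 and 9.04 points. The unadjusted p in the quasi-binomial model was 0.0694, 0.380 and 0.0520, with an adjusted p of 1 for each.

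The lead CpG of Cit was at position 115869266 of chromosome 5, in intron 4 of transcript Cit-201 and 23988 bp after the TSS. Its methylation was 38.5%, 33.3%, 21.7%, 31.7% and 29.2% in the AME-d21 libraries, against 67.9%, 64.3%, 60.6%, 69.2% and 66.7% in the Con-d21 libraries. The groups did not overlap, with means of 30.9% ± 6.14 in AME-d21, against 65.7% ± 3.39 in Con-d21 (mean ± SD, n = 5 each), a Δme of -34.8 points. Without AME-d21 replicate 4 the Δme was -35.1 points. At d0 the libraries gave 87.5%, 50.0%, 61.5%, 61.9% and 66.7% in AME-d0 and 91.7%, 50.0%, 71.4%, 81.5% and 72.4% in Con-d0. The d0 groups overlapped over nearly their whole range, with a Δme of -7.88 points, and of -13.9 points without AME-d0 replicates 1 and 3.

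Cit had 12 covered CpGs within 1 kb of its lead CpG, all but 1 of them upstream of it, and the capitals in its line above are followed directly by the exception. This CpG, 2 bp from the lead, was at 61.5%, 71.4%, 39.1%, 48.8% and 52.0% in AME-d21 and at 75.0%, 85.7%, 69.7%, 75.0% and 83.3% in Con-d21. AME-d21 replicate 2, at 71.4%, lay above the lowest Con-d21 library, so the groups overlapped. The means were 54.6% ± 12.4 in AME-d21, against 77.7% ± 6.61 in Con-d21 (mean ± SD, n = 5 each), a Δme of -23.2 points, and at d0 its Δme was -3.61 points. Away from this pair the values came back together. At 22 bp the Δme at d21 was -5.05 points, at 44 bp -3.88 points, at 79 bp 0.31 points and at 92 bp -10.7 points. The last of these had 38.5% in AME-d21 replicate 1 and 76.0% to 91.3% in the other AME-d21 libraries, against 76.9% to 89.3% in Con-d21. The 7 CpGs from 187 to 290 bp away had a Δme between -4.13 and 0.92 points at d21.

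The lead CpG of Agfg1, at position 82860514 of chromosome 1 in intron 2 of transcript Agfg1-206, had the opposite direction. At d0 it was at 100%, 96.6%, 100%, 95.3% and 100% in AME-d0, against 79.2%, 93.1%, 78.9%, 94.7% and 82.1% in Con-d0. At d21 it was at 81.8%, 90.9%, 88.2%, 92.3% and 84.8% in AME-d21, against 61.1%, 73.1%, 70.6%, 64.7% and 64.3% in Con-d21. At both ages every AME library was above every Con library, with a Δme of 12.8 points at d0 and 20.9 points at d21. The means were 98.4% ± 2.26 in AME-d0, against 85.6% ± 7.70 in Con-d0, and 87.6% ± 4.32 in AME-d21, against 66.8% ± 4.92 in Con-d21 (mean ± SD, n = 5 each). Without AME-d21 replicate 4 the Δme at d21 was 19.7 points, and without AME-d0 replicates 1 and 3 that at d0 was 11.7 points.

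Of the 4 covered CpGs near the Agfg1 lead, all upstream of it, the closest is printed 11 bp before the capitals. It was at 90.4% ± 5.22 in AME-d0, against 91.2% ± 2.39 in Con-d0, and at 89.2% ± 9.47 in AME-d21, against 88.2% ± 5.77 in Con-d21 (mean ± SD, n = 5 each). Its Δme was -0.77 points at d0 and 1.02 points at d21, on 20 to 65 reads per library. At 62 bp the AME-d0 libraries held 91.1% to 95.5% and the Con-d0 libraries 80.5% to 90.8%, which did not overlap, with a Δme of 8.36 points at d0 and 4.55 points at d21. The CpGs at 69 and 128 bp had a Δme of 1.09 and -8.90 points at d0 and of 2.92 and -4.36 points at d21.

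The lead CpG of Ccdc141, at position 77106607 of chromosome 2 in intron 6 of transcript Ccdc141-202, was lower in AME on average at both ages. Ccdc141 lies on the minus strand, so its line above is printed against the direction of the gene. The CpG was at 54.5%, 56.7%, 52.2%, 77.8% and 62.5% in AME-d0, against 82.1%, 71.9%, 90.6%, 82.2% and 89.3% in Con-d0. At d21 it was at 81.2%, 88.2%, 80.8%, 95.7% and 82.9% in AME-d21, against 100%, 100%, 95.2%, 90.0% and 100% in Con-d21. Replicate 4 of each AME group lay within the range of its controls, so the groups overlapped at both ages. Without AME-d21 replicate 4, which stood apart from its male label, the d21 groups did not overlap. The remaining AME-d21 libraries were at 80.8% to 88.2%, below the lowest Con-d21 library at 90.0%. The Δme was -22.5 points at d0 and -11.3 points at d21. Without AME-d0 replicates 1 and 3 the Δme at d0 was -17.6 points, and without AME-d21 replicate 4 that at d21 was -13.8 points. Its single covered neighbour, 132 bp away, was at 67.0% ± 14.6 in AME-d0, against 66.4% ± 6.16 in Con-d0 (mean ± SD, n = 5 each), a Δme of 0.58 points. At d21 that neighbour was at 94.5% ± 3.25 in AME-d21, against 85.6% ± 8.94 in Con-d21, a Δme of 8.90 points, against the direction of the lead CpG.

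**Figure D1:**
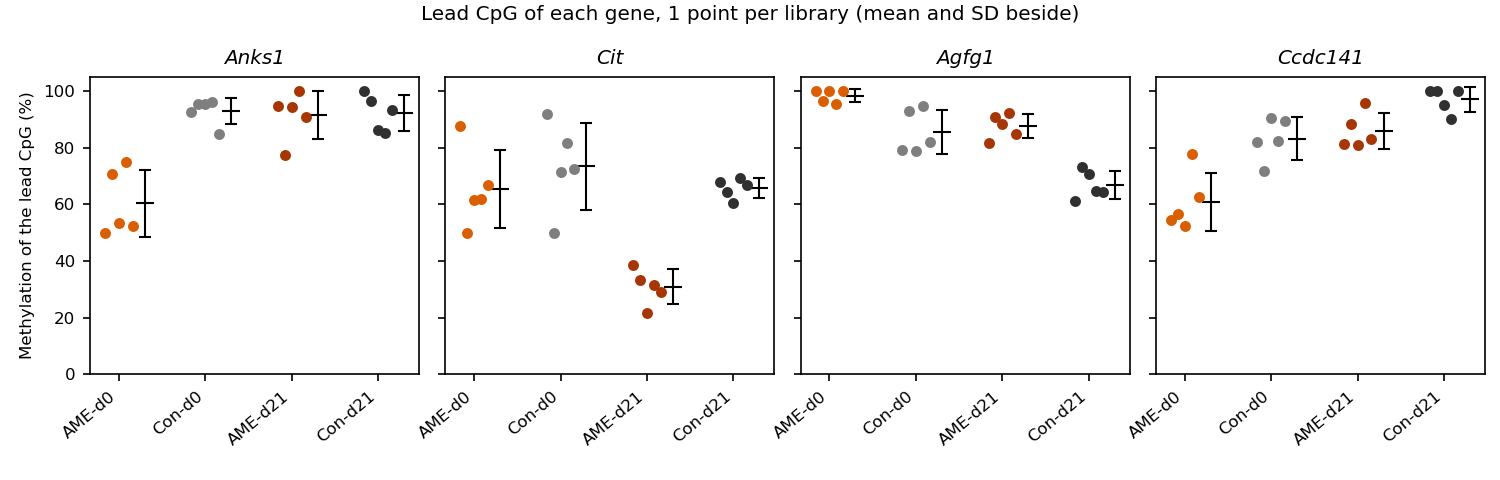
Methylation of the lead CpG of each gene in percent (vertical axis) in AME-d0, Con-d0, AME-d21 and Con-d21, with 1 point per library and the mean and SD beside the points. Anks1 is low in AME-d0 alone (50.0% to 75.0%), Cit in AME-d21 alone (21.7% to 38.5%), while Agfg1 is higher and Ccdc141 lower on average in AME at both ages.

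**Figure D2:**
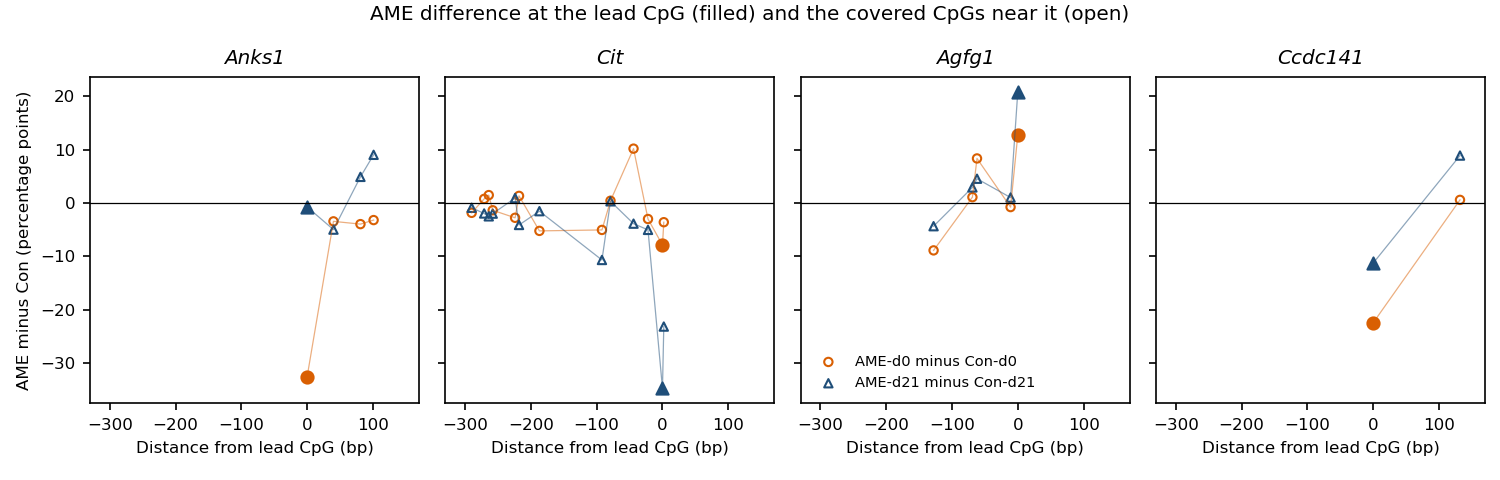
Difference of AME minus Con in percentage points (vertical axis) against the distance from the lead CpG in bp (horizontal axis), with circles for d0 and triangles for d21, filled at the lead CpG and open at covered neighbours. Apart from the Cit neighbour at 2 bp (-23.2 points at d21), the neighbours of all 4 genes lie between -10.7 and 10.2 points.

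Without the lead CpGs, 0 of 437 CpGs of the 4 genes were called between AME and Con by the quasi-binomial model at p under 0.001 and a Δme of at least 10 points, the study's threshold for a differentially methylated cytosine. Over the whole series 0.000542% of the 922846 CpGs were called at d0 and 0.000217% at d21. At an unadjusted p under 0.05 there were 9 of 437 at d0, beside 1.68% of all CpGs, and 13 of 437 at d21, beside 1.61%. The likelihood-ratio test called 0 of 437 at d0 and 1 at d21, beside 1831 and 1378 of all 922846 CpGs. Limma per CpG called 1 at d0 and 0 at d21, beside 771 and 505 of all CpGs. Both ages were searched for each lead CpG, so in this model no intronic neighbour could have a smaller p than its lead. The counts of the quasi-binomial model follow in part from that choice. At the age without the smallest p of the lead, 3 of 124 CpGs of Anks1 (d21) had an unadjusted p under 0.05, the smallest being 0.0141. In Cit (d0) it was 3 of 238, the smallest being 0.0219. The adjusted p was 1 for all of them. No CpG of the series had an adjusted p under 0.05 for an AME difference that itself differed between ages, and 10 of these 437 had an unadjusted p under 0.05, beside 2.71% of all CpGs. These counts do not show that the neighbours were alike in AME and Con.

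The median Δme without the lead was 0.00 points in Anks1 and -0.57 points in Cit at d0. At d21 it was 0.00 points in Anks1 and -0.14 points in Cit. In Agfg1 it was 0.00 points at both ages, and in Ccdc141 it was -1.51 points at d0 and -1.07 points at d21. Over all CpGs of the series the median was 0.00 at both ages. All libraries of AME-d0 were on one side of those of Con-d0 at 7 of 437 CpGs, beside 0.791% of all CpGs, and for d21 at 2 of 437, beside 0.703%.

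Summed over the promoter (the TSS with 1 kb before and after it) or over the gene body (from there to the gene end, without the lead CpG), no AME difference passed the test. Limma called 0 of 18359 promoters and 0 of 16182 gene bodies of the series at either age (0% called), with 5.40% and 4.97% of promoters and 7.08% and 4.62% of bodies under an unadjusted p of 0.05 at d0 and d21. The body of Anks1 averaged 76.7% ± 0.879 in AME-d21, against 76.3% ± 0.849 in Con-d21 (mean ± SD, n = 5 each), with a limma adjusted p of 1. The body of Cit averaged 82.1% ± 0.911 in AME-d0, against 83.5% ± 0.976 in Con-d0, with a limma adjusted p of 0.770. The body of Anks1 was at 55.0% ± 4.17 in AME-d0, against 57.5% ± 2.25 in Con-d0, and AME-d0 replicate 1, at 48.2%, was its lowest library. As log2 of methylated over unmethylated reads, the difference at d0 was -0.15 for Anks1 and -0.14 for Cit. Both were near the median of -0.13 over all 16182 bodies.

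By called CpGs, Anks1, Cit and Ccdc141 differed far more between d21 and d0 than between AME and Con. Agfg1 did not, with 0 of 40 CpGs called in either kind of comparison. Its body, without the lead CpG, differed with age by 0.67 points in AME and 0.29 in Con. Between AME and Con it differed by 2.96 points at d0 and 3.34 at d21, given without a test. Age was not used to choose the genes, and Con and AME give separate sets of libraries. In AME-d21 against AME-d0, 47 of 441 CpGs were called, 26 higher and 21 lower, where 3.11% of all CpGs were called (2.56% higher and 0.553% lower). In Con-d21 against Con-d0 it was 58 of 441, 29 higher and 29 lower, where 3.21% were called (2.48% higher and 0.730% lower). None of the lead CpGs was among them. At an adjusted p under 0.05 there were, without the leads, 66 of 437 in AME, beside 5.22% of all CpGs, and 71 of 437 in Con, beside 5.27%. The leads of Cit and Ccdc141 also passed that p in AME. The CpGs called in both were 38, which is 80.9% of those called in AME and 65.5% of those called in Con. All 47 called in AME had the same direction in Con, and all 58 called in Con had the same direction in AME. Leaving out 1 library at a time gave 25 to 33 calls in AME and 36 to 49 in Con, beside 17858 to 19877 and 18953 to 21490 of all 922846 CpGs. The lowest count in the 4 genes came without AME-d21 replicate 5 in AME and without Con-d0 replicate 5 in Con. Without AME-d21 replicate 4 there were 32, beside 19151 of all CpGs. Without AME-d0 replicates 1 and 3, which leaves 3 libraries at d0, there were 15, beside 10416.

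The direction of the called CpGs with age went by gene. Anks1 had 23 CpGs called higher and 0 lower in AME, and 27 higher and 0 lower in Con. Cit had 1 higher and 16 lower in AME, and 0 higher and 23 lower in Con. Ccdc141 had 2 higher and 5 lower in AME, and 2 higher and 6 lower in Con, while Agfg1 had 0 of its 40 CpGs called in either. In Agfg1 the smallest p without the lead was 0.0489 in AME and 0.185 in Con, and 33 of its CpGs lay in the promoter, near 0% at both ages. Over all covered CpGs without the lead, called or not, the median difference with age was 12.75 points in AME and 8.75 in Con for Anks1, and 10.34 in AME and 6.00 in Con for Ccdc141. In Cit it was 1.33 points in AME and 1.24 in Con, with 98 of 238 CpGs lower in AME and 99 of 238 in Con, so that its median CpG was higher at d21 while nearly all its called CpGs were lower. Over the whole series the median was 1.22 points in AME and 0.90 in Con.

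**Figure D3:**
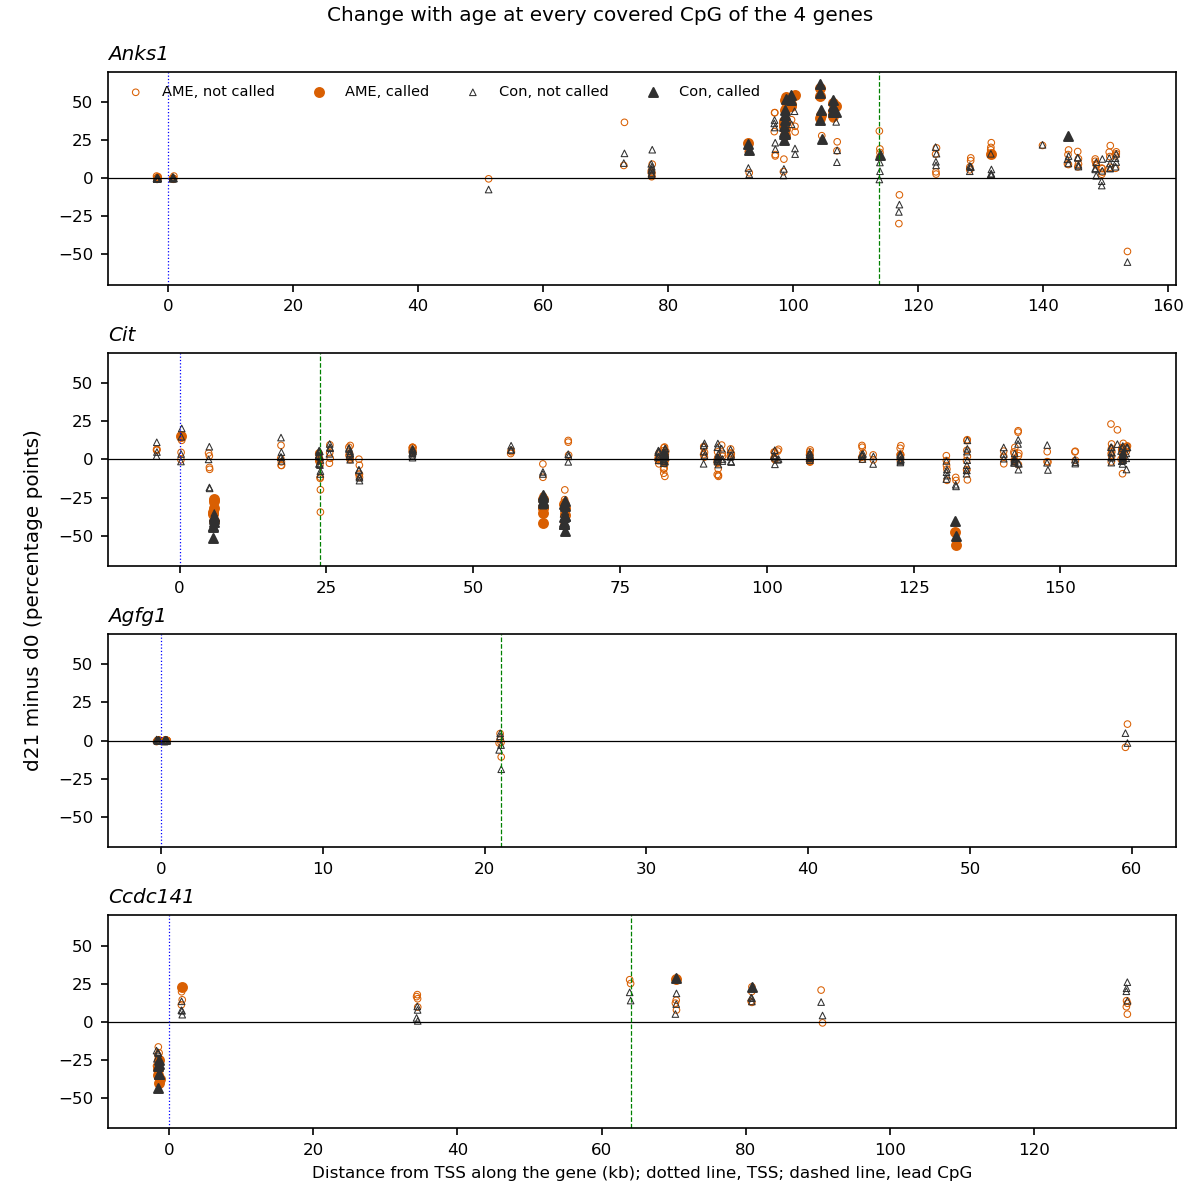
Difference of d21 minus d0 in percentage points (vertical axis) at each covered CpG against its distance from the TSS in kb along the gene (horizontal axis), with circles for AME and triangles for Con, filled where called; the dotted line marks the TSS and the dashed line the lead CpG. Called CpGs of Anks1 all rose and, but for 1 in AME, those of Cit all fell, most of them in clusters that hold no lead CpG.

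Called CpGs stood in runs. Runs were taken after the values were seen, as at least 4 CpGs called in the same direction in Con with gaps of at most 150 bp, and are described without a test. The Con calls in a run thus follow largely from this choice. Their number is not to be set against the number called in AME. In Anks1 the run with the most CpGs lay in a coding exon 98556 bp after the TSS, where 10 of 11 covered CpGs were called higher in AME and all 11 in Con. The sequences of this run and of the run in intron 12 at 106346 bp are given because neither was near the lead CpG; capitals mark the CpGs called in Con.
Anks1 coding exon, chr17:28007862-28008087: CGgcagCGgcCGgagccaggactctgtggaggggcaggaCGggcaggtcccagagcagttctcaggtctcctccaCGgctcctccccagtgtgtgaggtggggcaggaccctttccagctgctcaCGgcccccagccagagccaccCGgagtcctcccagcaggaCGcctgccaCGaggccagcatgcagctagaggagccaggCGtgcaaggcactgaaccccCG
Anks1 intron 12, chr17:28015652-28015710: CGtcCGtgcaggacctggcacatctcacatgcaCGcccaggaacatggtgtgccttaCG
Mean methylation over the exon run was 48.2%, 54.2%, 50.4%, 43.6% and 54.3% in AME-d21, against 11.5%, 12.8%, 4.68%, 10.8% and 15.3% in AME-d0. It was 48.0%, 53.5%, 46.8%, 54.5% and 51.4% in Con-d21, against 11.5%, 12.9%, 17.7%, 16.8% and 14.7% in Con-d0. Every d21 library was far above every d0 library, and AME and Con overlapped at d21. The run of 4 CpGs in intron 12 averaged 55.5% ± 11.3 in AME-d21, where replicate 1 had too few reads, and 11.9% ± 6.57 in AME-d0. A further run of 5 CpGs in intron 12, at 104218 bp, averaged 62.6% ± 6.54 in AME-d21, against 18.0% ± 1.79 in AME-d0, and 65.7% ± 6.50 in Con-d21, against 20.2% ± 1.95 in Con-d0 (mean ± SD, n = 5 each).

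The single CpG of Anks1 with the largest rise in both AME and Con, at 104257 bp from the TSS, lay in that further run. It was at 64.9% ± 11.9 in AME-d21, against 5.49% ± 3.83 in AME-d0 (SD), a difference of 59.4 points with an adjusted p of 0.00498 in the quasi-binomial model. It was at 72.7% ± 7.26 in Con-d21, against 10.5% ± 6.75 in Con-d0, a difference of 62.1 points with an adjusted p of 0.00348. The next largest rise was 54.8 points at 100213 bp in AME and 56.3 points at 104322 bp in Con. The lead CpG of Anks1 itself had 92.2% ± 6.50 in Con-d21, against 92.9% ± 4.73 in Con-d0, with overlapping libraries. Its neighbour at 40 bp rose in Con, to 95.9% ± 3.11 in Con-d21, against 80.5% ± 3.49 in Con-d0 (SD), with an adjusted p of 0.0236, and was 13.8 points higher in AME-d21 than in AME-d0 without being called.

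In Cit the CpGs called in Con fell into 3 runs and a pair. The first, 5763 bp after the TSS, covers intron 1 of Cit-201 and exons of other Cit transcripts. Of its covered CpGs 5 of 7 were called lower in AME and all 7 in Con. The third, in intron 9 at 65464 bp, had 3 of 10 called lower in AME and 10 of 10 in Con. All 10 were lower at d21 in AME as well. The Con calls chose the runs, so these counts do not compare AME with Con. The lines show the 3 runs, with the CpGs called in Con in capitals.
Cit intron 1, chr5:115851041-115851160: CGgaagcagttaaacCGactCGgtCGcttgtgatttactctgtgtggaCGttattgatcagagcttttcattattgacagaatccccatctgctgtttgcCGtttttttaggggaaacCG
Cit intron 8, chr5:115907191-115907245: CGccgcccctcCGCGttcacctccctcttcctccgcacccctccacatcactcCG
Cit intron 9, chr5:115910742-115910961: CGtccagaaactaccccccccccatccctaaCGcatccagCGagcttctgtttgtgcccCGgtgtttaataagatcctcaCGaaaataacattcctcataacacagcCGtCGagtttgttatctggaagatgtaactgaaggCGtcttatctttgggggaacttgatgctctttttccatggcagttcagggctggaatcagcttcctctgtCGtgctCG
Mean methylation over the intron 1 run was 38.0%, 36.4%, 42.7%, 22.8% and 27.9% in AME-d21, against 61.5%, 58.1%, 55.4%, 72.2% and 73.0% in AME-d0. It was 22.3%, 21.1%, 24.0%, 26.6% and 25.4% in Con-d21, against 66.5%, 64.2%, 75.3%, 62.8% and 61.3% in Con-d0. All d21 libraries were below all d0 libraries. At d21, 4 of the 5 AME libraries lay above every Con library. The run was chosen by its fall in Con, which used these Con-d21 values. The contrast was therefore not tested and is not read as a difference between AME and Con. Over the intron 9 run the values were 11.9%, 20.1%, 16.9%, 14.6% and 22.9% in AME-d21, against 48.4%, 45.2%, 53.2%, 53.4% and 45.4% in AME-d0. They were 11.4%, 14.0%, 18.3%, 12.5% and 16.8% in Con-d21, against 40.8%, 52.8%, 54.7%, 53.3% and 50.8% in Con-d0. The run in intron 8, at 61913 bp, averaged 21.1% ± 6.58 in AME-d21, against 52.4% ± 7.04 in AME-d0, and 23.4% ± 5.53 in Con-d21, against 49.7% ± 5.18 in Con-d0 (mean ± SD, n = 5 each).

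The largest single fall of Cit in AME was in intron 27, at 132156 bp from the TSS. That CpG was at 12.6% ± 7.33 in AME-d21, against 68.7% ± 12.4 in AME-d0 (SD), a difference of -56.1 points with an adjusted p of 0.00787 in the quasi-binomial model. It was at 15.3% ± 5.02 in Con-d21, against 65.9% ± 6.82 in Con-d0, a difference of -50.6 points with an adjusted p of 0.00370. In Con the CpG at 5763 bp had the largest fall, to 25.0% ± 6.01 in Con-d21, against 76.4% ± 6.12 in Con-d0, with an adjusted p of 0.00485. The single CpG of Cit called higher, at 300 bp from the TSS in AME, was at 16.8% ± 5.34 in AME-d21, against 1.27% ± 1.75 in AME-d0, with an adjusted p of 0.0255.

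In Ccdc141 the CpGs that fell in Con lay upstream of the gene, between 1363 and 1460 bp before the TSS, and the rising ones in introns. The upstream run had 4 of 6 covered CpGs called in AME and 6 of 6 in Con, where capitals mark those called in Con.
Ccdc141 upstream, chr2:77171999-77172097: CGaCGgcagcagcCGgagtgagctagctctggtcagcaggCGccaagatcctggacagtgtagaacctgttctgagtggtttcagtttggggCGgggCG
Its mean was 14.3%, 16.7%, 24.4%, 17.9% and 22.6% in AME-d21, against 45.5%, 59.1%, 42.9%, 48.4% and 55.6% in AME-d0. It was 23.2%, 25.4%, 15.3%, 25.4% and 27.0% in Con-d21, against 52.2%, 51.2%, 61.7%, 52.4% and 60.6% in Con-d0. The ages did not overlap in either. Within intron 6, the intron of the lead CpG, the CpG at 70295 bp from the TSS was at 87.0% ± 6.65 in AME-d21, against 59.3% ± 8.30 in AME-d0 (SD), with an adjusted p of 0.0303. It was at 88.2% ± 2.24 in Con-d21, against 59.2% ± 5.68 in Con-d0, with an adjusted p of 0.00625.

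**Figure D4:**
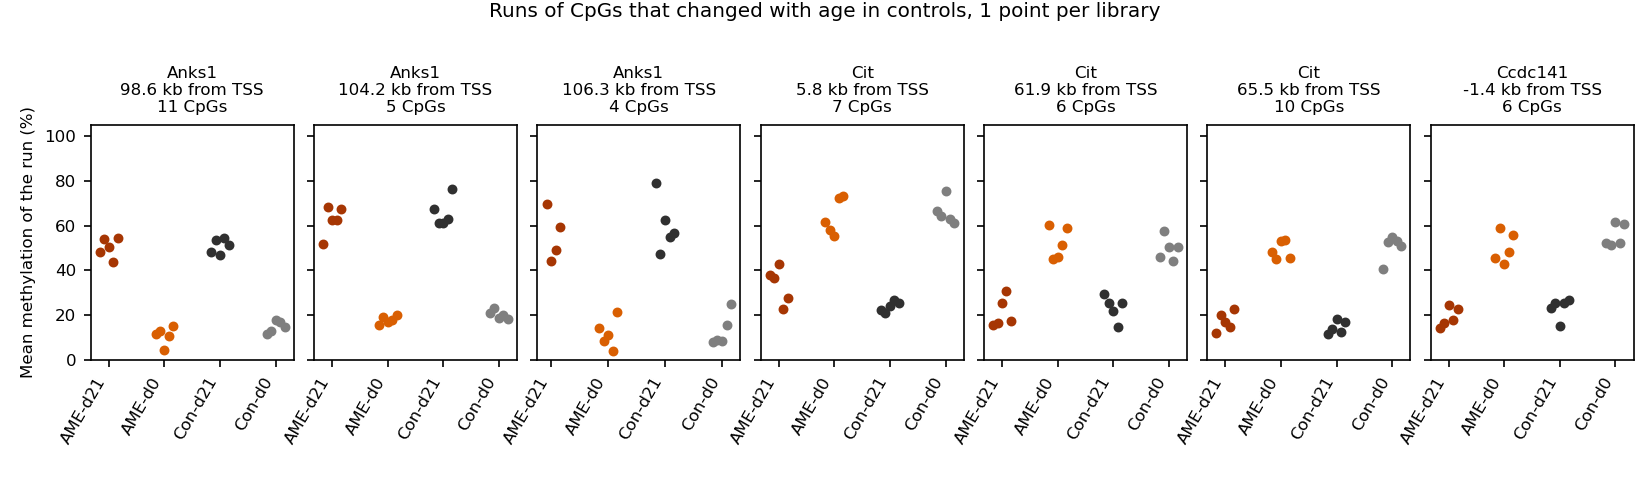
Mean methylation in percent (vertical axis) over each run of called CpGs in AME-d21, AME-d0, Con-d21 and Con-d0, with 1 point per library; runs are titled by gene, distance of their first CpG from the TSS and covered CpGs. All d21 libraries lie above all d0 libraries in the 3 runs of Anks1 and below them in the 3 runs of Cit and the run of Ccdc141.

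Sums over features were compared with limma, which is given on the log2 scale of methylated over unmethylated reads with 1 added to each. The gene body of Anks1 was at 76.7% ± 0.879 in AME-d21, against 55.0% ± 4.17 in AME-d0, a log2 difference of 1.43 (SE 0.15, adjusted p = 1.34e-05). It was 1.43 without AME-d21 replicate 4 and 1.30 without AME-d0 replicates 1 and 3. In Con the log2 difference of Anks1 was 1.25 (SE 0.11, adjusted p = 5.23e-06). The body of Ccdc141 was at 89.5% ± 1.37 in AME-d21, against 73.2% ± 3.30 in AME-d0, a log2 difference of 1.64 (SE 0.16, adjusted p = 1.13e-05), and in Con the difference was 1.39 (SE 0.12, adjusted p = 6.36e-06). In AME it was 1.60 without AME-d21 replicate 4 and 1.51 without AME-d0 replicates 1 and 3. The median body of all genes rose too, by 0.76 in AME and 0.63 in Con, and 65.6% of bodies in AME and 61.1% in Con were called higher.

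The body of Cit fell, as did 3.86% of bodies in AME and 5.22% in Con. It was at 78.6% ± 1.84 in AME-d21, against 82.1% ± 0.911 in AME-d0, a log2 difference of -0.32 (SE 0.13, limma adjusted p = 0.0454). It was at 77.7% ± 0.943 in Con-d21, against 83.5% ± 0.976 in Con-d0, a difference of -0.53 (SE 0.10, limma adjusted p = 0.000928). The call in AME was lost when 8 of the 10 libraries were left out in turn; without AME-d21 replicate 4 the difference was -0.26 with a limma adjusted p of 0.10. Without AME-d0 replicates 1 and 3 it was -0.38. When each CpG counted equally the difference was -0.06 in AME and -0.12 in Con, with limma adjusted p of 0.676 and 0.317. The body of Agfg1, which rests on 6 CpGs, had log2 differences of 0.04 in AME and 0.02 in Con, with limma adjusted p of 0.830 and 0.909.

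The promoter of Cit rose with age while its body fell. It was at 7.27%, 8.57%, 10.8%, 12.1% and 9.09% in AME-d21, against 0%, 1.10%, 1.98%, 1.59% and 0.662% in AME-d0. It was at 11.1%, 8.16%, 12.3%, 8.82% and 5.33% in Con-d21, against 1.45%, 2.38%, 0%, 0% and 0.877% in Con-d0. No d21 library overlapped a d0 library, and the log2 difference was 2.59 in AME (SE 0.35, limma adjusted p = 0.000175) and 2.74 in Con (SE 0.42, limma adjusted p = 0.000497), where 20.8% and 19.8% of promoters were called higher. In AME it was 2.51 without AME-d21 replicate 4 and 2.48 without AME-d0 replicates 1 and 3. The value rests on 4 CpGs and 34 to 151 reads per library, and it is not tested when at least 5 CpGs are asked for. The promoters of Anks1 and Agfg1 held at most 1.01% and 0.428% in any library and were not called; the start of Anks1 overlaps that of Taf11 on the other strand. The promoter of Ccdc141 had 0 covered CpGs.

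Marker promoters of liver cell types moved with age as well. Of 12 hepatocyte genes 4 had a measured promoter, and all 4 fell, where 3.13% of all promoters in AME and 3.87% in Con were called lower, with a median of 24.7% in AME-d21 and 57.2% in AME-d0, and of 23.7% in Con-d21 and 59.6% in Con-d0. Of 12 blood cell genes 6 were measured and 5 rose in both, where 20.8% of all promoters in AME and 19.8% in Con were called higher, with a median of 52.0% in AME-d21 and 16.0% in AME-d0, and of 53.5% in Con-d21 and 21.4% in Con-d0. Of 6 endothelial genes 3 were measured and 2 rose in both, against the same shares, with a median of 49.0% in AME-d21 and 9.54% in AME-d0, and of 45.1% in Con-d21 and 19.6% in Con-d0. Their part in the age differences of the 4 genes was not tested. Between AME-d0 and Con-d0 none of these promoters was called, as was none of the 18359 promoters of the series. This does not show that they were alike. At an unadjusted limma p under 0.05 there were 0 of 4 hepatocyte, 0 of 6 blood cell and 1 of 3 endothelial promoters, beside 5.40% of all promoters. The 1 was Eng, at 9.54% ± 3.46 in AME-d0, against 19.6% ± 6.03 in Con-d0 (limma adjusted p = 0.813). The part of these promoters in the lead CpGs was not tested either.

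Genes related to the members were followed by their promoters. Over all promoters 20.8% were called higher and 3.13% lower with age in AME, and 19.8% higher and 3.87% lower in Con, while 5.40% at d0 and 4.97% at d21 had an unadjusted p under 0.05 between AME and Con. Of 23 genes of cytokinesis, around citron kinase, 23 were measured and limma called 0 between AME and Con at either age, with 1 at d0 and 2 at d21 under an unadjusted p of 0.05. With age 3 of 23 rose and 1 fell in AME, and 2 of 23 rose and 0 fell in Con, so that the share that rose was below that of all promoters. Without AME-d21 replicate 2 the number called in AME was 2. Plk1, a kinase of mitosis and cytokinesis, was at 5.53% ± 0.559 in AME-d21, against 0.488% ± 0.212 in AME-d0, and at 6.43% ± 1.03 in Con-d21, against 0.421% ± 0.210 in Con-d0 (mean ± SD, n = 5 each). Myh10, a non-muscle myosin of the contractile ring, was at 2.09% ± 1.56 in AME-d21, against 0.281% ± 0.190 in AME-d0, and its log2 difference was 1.50 in Con (limma adjusted p = 0.0169). All 23 promoters stayed under 10% in both ages.

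Of 23 ephrins, Eph receptors and the Anks1 paralogue, 19 were measured. With age 7 of 19 rose and 1 fell in AME, where 20.8% of all promoters rose and 3.13% fell. In Con 4 of 19 rose and 2 fell, where 19.8% rose and 3.87% fell, so that the share that rose was near that of all promoters. Efnb3, a transmembrane ephrin, was at 13.2% ± 3.16 in AME-d21, against 2.08% ± 0.655 in AME-d0, and at 7.52% ± 0.717 in Con-d21, against 2.13% ± 0.517 in Con-d0 (mean ± SD, n = 5 each). Epha2, a receptor of the family, fell on a very low level, with 0.0959% ± 0.0870 in AME-d21, against 0.394% ± 0.0507 in AME-d0. Between AME and Con limma called 0 of 19 at either age, with 1 at d0 and 3 at d21 under an unadjusted p of 0.05, beside 5.40% and 4.97% of all promoters.

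Of 24 genes of Arf GTPase-activating proteins and their partners, 21 were measured. With age 5 of 21 rose and 1 fell in AME, and 4 of 21 rose and 1 fell in Con, where 20.8% and 19.8% of all promoters rose, so that the shares were near those of all promoters. Arap1, which carries an ArfGAP domain, was at 3.60% ± 0.981 in AME-d21, against 0.0603% ± 0.135 in AME-d0, and at 1.83% ± 0.702 in Con-d21, against 0.112% ± 0.106 in Con-d0 (mean ± SD, n = 5 each). Git1, an ArfGAP that binds signalling kinases at adhesions, was at 1.66% ± 0.441 in AME-d21, against 0.261% ± 0.216 in AME-d0. Of 21 genes of neuronal migration, 17 were measured, with 4 called higher and 0 lower in AME, where 20.8% of all promoters rose and 3.13% fell, and 2 higher and 2 lower in Con, where 19.8% rose and 3.87% fell. Fgfr1, a fibroblast growth factor receptor, was at 62.5% ± 2.41 in AME-d21, against 47.0% ± 4.49 in AME-d0, and at 65.9% ± 0.985 in Con-d21, against 52.5% ± 3.64 in Con-d0. Between AME and Con limma called 0 of the 21 and 0 of the 17 at either age, with 2 and 2 at d0 and 2 and 0 at d21 under an unadjusted p of 0.05, beside 5.40% at d0 and 4.97% at d21 of all promoters. The median log2 difference with age was 0.39 in AME and -0.12 in Con for the cytokinesis list and 0.63 in AME and 0.27 in Con for the ephrin list. It was 0.34 in AME and 0.46 in Con for the Arf list and 0.40 in AME and 0.19 in Con for the migration list, beside 0.35 in AME and 0.28 in Con over all promoters.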

How the data were processed

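RRBS was performed by the authors on liver DNA of 20 offspring after MspI digestion and bisulfite conversion. The authors deposited, for each library, the count of methylated and of unmethylated reads at every CpG with at least 1 read, without normalization, on the plus strand. mm10, BWA, Bismark, Trim Galore and FastQC are named in the submitters' processing notes. Versions, deduplication and the merging of strands are not given in the sources used here. Molecular identifiers are not mentioned there either, so read numbers may count PCR copies of the same molecule more than once.

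Positions that are not a CG in GRCm38 were left out (0.128% to 0.230% per library). Genes came from GENCODE M21. In the quasi-binomial fits a library entered at a CpG only with at least 10 reads there. Sums over promoters and bodies, and limma per CpG, used the reads of every library at the covered CpGs. An F test in a quasi-binomial logistic fit was run at each CpG, with overdispersion floored at 1 (Python 3.11.15, numpy 2.4.6, scipy 1.17.1, pandas 2.3.3, numba 0.67.0), and p was adjusted over 922846 CpGs by Benjamini-Hochberg. A call needed an unadjusted p under 0.001 and a difference of at least 10 percentage points; the paper states this threshold without naming the test. Promoters and bodies with at least 3 covered CpGs were compared by limma (version 3.58.1, R 4.3.3) as log2 of methylated over unmethylated reads after adding 1 to each, and called at an adjusted p under 0.05. Comparisons were AME with Con within an age and d21 with d0 within AME or Con, without covariates. Scripts were tested on simulated data. Figures were drawn with matplotlib 3.10.9.

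The 4 genes, the related gene lists and the alternatives were chosen with earlier results of these data known. Named were the lead CpGs, covered CpGs within 1 kb of them, up to 3 called CpGs per gene and direction with age, promoters, bodies, and up to 3 promoters per list and direction; the text gives a part of these. Alternatives were other read minimums, tests, thresholds and feature summaries, a replicate block, and libraries left out.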

Additional observations from a re-analysis of the deposited data

Results flagged for a closer look

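In 4 of 44 groups of 5 libraries 1 library lay far from the other 4, where chance gives about 1 in 20 for normally spread values. All 4 were promoters at or near 0%. There that rate does not apply, since any value above 0% beside 4 libraries at 0% is flagged. The Anks1 promoter was at 0.338% in 1 AME-d0 library, at 0.391% in 1 Con-d0 library and at 0.595% in 1 AME-d21 library, with 0% in the other 4 libraries of each group. The Agfg1 promoter was at 0.428% in 1 Con-d21 library and at 0% to 0.0889% in the other 4. No lead CpG and no gene body had such a library.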

How the results depend on the processing

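The difference at each lead CpG moved by less than the spread between libraries in 152 of 152 alternatives. That count was largely fixed beforehand. A changed test or threshold keeps the same difference, and leaving out 1 of 5 libraries can move a mean only a little. It is therefore no measure of how firm the differences were. Without 1 library at a time the difference ranged at d0 from -36.3 to -30.0 points for Anks1, -13.7 to -3.31 for Cit, 11.1 to 15.0 for Agfg1 and -26.8 to -20.4 for Ccdc141. At d21 it ranged from -2.88 to 2.80, -36.7 to -32.6, 19.5 to 22.5 and -13.8 to -10.0 points. Whether a lead CpG passed the threshold, a description since these values chose the genes, did depend on the setting. The quasi-binomial model called 1 at each age (0 to 1 without 1 library), and 0 at either age with an adjusted p or the replicate block. The likelihood-ratio test called 3 at d0 and 3 at d21, and limma per CpG and a p under 0.01 each called 3 and 2. With at least 20 reads 0 were called at either age, where the leads of Anks1 and Agfg1 had too few libraries to be tested. The neighbours gave 0 calls at either age without any 1 library, beside 0 to 3 at d0 and 0 to 2 at d21 of all 922846 CpGs. Limma per CpG called 1 neighbour at d0, beside 771 of all CpGs. At d21 the likelihood-ratio test called 1, beside 1378, and a p under 0.01 called 1, beside 428.

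The CpGs called with age numbered 31 of 280 in AME and 36 of 280 in Con with at least 20 reads, beside 19024 and 20999 of all 502230 CpGs. Of 441 CpGs, the likelihood-ratio test called 115 in AME and 103 in Con, beside 127229 and 117565 of all 922846. At p under 0.01 it was 99 and 94, beside 93053 and 89838. By limma per CpG it was 98 and 89, beside 84144 and 81364. Without 1 library it was 25 to 33 in AME and 36 to 49 in Con, beside 17858 to 19877 and 18953 to 21490. With the replicate number as a block there were 2 in AME and 12 in Con, beside 3641 and 4208. The share in AME was then near that of all CpGs. The numbers do not pair the libraries (correlations of -0.0204 to 0.0569 between same-numbered libraries, 0 of 5 pairs over 0.1 in each comparison). The block made limma's call of the Cit body in AME miss the threshold (-0.32, adjusted p 0.104) and gave 2 called promoters in the cytokinesis list in AME and 2 in the migration list in Con; it called 0 neighbours in AME against Con. Without AME-d0 replicates 1 and 3 there were 15 CpGs, beside 10416 of all 922846, and 2, 3 and 2 promoters of the cytokinesis, Arf and migration lists.

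Of the promoters of the 4 genes, 0 rather than 1 were called with age in AME and in Con with at least 20 reads, with 10 reads in all 20 libraries and with at least 5 CpGs, since the Cit promoter was then not tested. Called promoters of the lists became 2 in AME and 1 in Con for cytokinesis under either read rule (2 to 5 in AME without 1 library), 2 for migration in AME with all 20 libraries and in Con with 20 reads. With each CpG weighted equally they were 4 and 1 for ephrins, 3 and 2 for Arf genes in AME and Con, and 2 for migration in Con.

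Among values that were not called, these changed sign: Anks1 promoter in AME-d21 against Con-d21 (-0.09 with 20 reads or all 20 libraries, -0.14 to 0.41 without 1 library) and with age in Con (-0.22 with equal weights, -0.01 with 5 reads), Agfg1 promoter with age in Con (0.02 with equal weights, -0.62 to 0.06 without 1 library) and in AME (-0.08 to 0.47), Cit promoter at d0 (-0.09 to 0.47), Anks1 body at d21 (-0.03 with 20 reads, -0.00 with all 20 libraries) and Agfg1 body with age (-0.05 to 0.14 in Con, -0.01 to 0.15 in AME without 1 library). Among values given without a test, so did the Cit body at d21 (-0.09 with equal weights), the Cit promoter at d21 (-0.14 with equal weights, -0.13 to 0.15 without 1 library), the Agfg1 promoter at d21 (-0.21 to 0.48), the Ccdc141 body at d0 (-0.12 to 0.03, and 0.06 without AME-d0 replicates 1 and 3) and the Anks1 lead CpG at d21 (-2.88 to 2.80). The causes were not tested. A library's value at a lead CpG rests on 11 to 46 reads.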

Other observations

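Outside the runs, 3 CpGs of Anks1 in an exon annotated as UTR, 17907 to 17939 bp after the lead CpG, were lower in AME on average at d0 and higher at d21. They were picked after their values were seen. The first was at 62.5% ± 8.51 in AME-d0, against 76.0% ± 6.74 in Con-d0, and at 86.0% ± 7.04 in AME-d21, against 79.2% ± 3.83 in Con-d21 (mean ± SD, n = 5 each). The third was at 96.0% ± 2.58 in AME-d21, against 83.5% ± 8.40 in Con-d21, where the lowest AME-d21 library, at 92.9%, was just above the highest Con-d21 library, at 92.7%. The CpG at the last exon of Anks1, 39685 bp after the lead, fell with age by 48.0 points in AME and by 55.0 points in Con without being called, on at most 17 reads per library. In Ccdc141 a CpG 68887 bp from the lead was at 84.6% ± 4.72 in AME-d0, against 64.4% ± 5.91 in Con-d0, where 4 libraries had enough reads, and at 89.5% ± 6.42 in AME-d21, against 90.3% ± 2.44 in Con-d21.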
